A study of Homo sapiens with 4 samples.

Results

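The 10 genes described here encode the subunits of the transcription factor NF-κB (*NFKB1*, *NFKB2*, *REL*, *RELA* and *RELB*) and inhibitors that act back on its pathway (*NFKBIA*, *NFKBIZ*, *TNFAIP3*, *BIRC3* and *ZC3H12A*). They were chosen by symbol from the 57820 genes of a transcript count table, and all 10 had enough counts to be tested. The cells were SK-N-SH, an established human neuroblastoma line, and were profiled by RNA-seq. The vector control group (n = 2 libraries) received an empty lentivirus without insert, and the OE group (n = 2) received a lentivirus carrying the long noncoding RNA *RP5-998N21.4* behind the EF1a promoter. All 4 libraries therefore come from lentivirus-transduced cells of 1 line. Nothing in the labels says whether the libraries of a group came from separate cultures, so the p-values measure only the spread between these libraries, which may be technical.

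NF-κB works as dimers of its subunits. In resting cells the dimers are held in the cytoplasm by IκB proteins such as the product of *NFKBIA*, and they enter the nucleus when the IKK kinases mark IκB for degradation. Several genes that they then switch on encode brakes on the same pathway, which makes the response self-limiting. In many cell types NF-κB is known for driving cytokine and chemokine genes.

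The libraries held between 23785164 and 28307591 counts each, and mitochondrial genes took from 6.01% to 6.5% of them. Expression is given in CPM, which are counts relative to the library size, with the size scaled by edgeR's TMM method. The overexpressed gene checked the labels, since *RP5-998N21.4* had 32 and 33 counts in vector control libraries but 2407 and 2808 in OE. Of 8 adrenergic neuroblastoma markers, 7 were measured, among them *HAND2* and *GATA3*, whereas *TH* had 0 counts in every library. The leukocyte genes *CD3E*, *MS4A1* and *LYZ* were also at 0, and *PTPRC*, which marks leukocytes in general, had at most 4 counts. The myeloid markers did have counts, with *CD68* at 240 and 237 under vector control and 2 and 126 in OE, *CD14* at 15 to 34 per library and *ITGAM* at 8 and 4 in OE only.

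The promoters of the 10 genes were read for the κB consensus, the sequence that NF-κB dimers recognize, because feedback genes are known for such sites. RefSeq promoters of 300 bases (build GRCh38.p14, 250 bases before to 50 bases after the start site) were matched by symbol for 9 of the 10 genes, all but *RELB*. On either strand, 6 of the 9 held at least 1 match, against 9.08% of all 35116 promoters of this length. The 6 were *NFKB1*, *REL*, *NFKBIA*, *NFKBIZ*, *TNFAIP3* and *BIRC3*. No match lay in these windows of *NFKB2*, *RELA* and *ZC3H12A*. Below, each match is shown in capitals within 30 bases of promoter, read in the direction of the gene.
NFKB1: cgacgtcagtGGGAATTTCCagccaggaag
REL: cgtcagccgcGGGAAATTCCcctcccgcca
NFKBIA: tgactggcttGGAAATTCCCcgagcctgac
NFKBIZ: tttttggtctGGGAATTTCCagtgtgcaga
TNFAIP3 upstream match: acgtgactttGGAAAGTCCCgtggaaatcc
TNFAIP3 downstream match: aaagtcccgtGGAAATCCCCgggcctacaa
BIRC3 upstream match: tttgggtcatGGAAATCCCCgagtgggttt
BIRC3 downstream match: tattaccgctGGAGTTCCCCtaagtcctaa

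The *NFKBIA* window lies at chr14:35404811-35404840, with the match starting 81 bases before the start site. The paired matches of *TNFAIP3*, at chr6:137867182-137867211 and chr6:137867194-137867223, start 67 and 55 bases before it. Those of *BIRC3*, at chr11:102317275-102317304 and chr11:102317339-102317368, start 199 and 135 bases before it. The *NFKB1* match (chr4:102501300-102501329) starts 49 bases, the *REL* match (chr2:60881517-60881546) 47 bases and the *NFKBIZ* match (chr3:101827757-101827786) 223 bases before the start site. In *REL*, a further match on the opposite strand overlaps the one shown, shifted by 1 base. A match is a description of letters, and binding was not measured here.

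The inhibitors lay mostly below and the subunits mostly above the control level, although the difference between the groups of genes was not tested. For the inhibitors, 5 of 5 log2 fold changes (log2FC, OE over vector control, each given with its standard error, SE) were negative, with a median of -0.75, and in 4 of the 5 both OE libraries were below both vector control libraries. For the subunits, 4 of 5 were positive, with a median of 0.15, and in 3 both OE libraries were above both vector control libraries. Over all 20528 genes tested the median was 0.01, and 27.6% of genes had both OE libraries below and 27.8% both above. The smallest two-sided p of an exact permutation test on 2 against 2 libraries is 0.333. In bulk RNA such as this, fewer cells of a kind and less RNA per cell cannot be told apart.

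Gene by gene, the quasi-likelihood test of edgeR, adjusted by Benjamini-Hochberg, called 0 of the 10 genes under the limits the study set (adjusted p below 0.01, log2FC beyond 0.5 either way), and 0 of all 20528 (0%). Its smallest adjusted p over all genes was 0.0109, that of the overexpressed *RP5-998N21.4* itself (log2FC 6.11). Since even that gene was not called, 0 calls by edgeR at these limits, here and in the lists below, say little about the genes. With the adjusted limit relaxed to 0.05, still 0 of the 10 passed, against 0.594% of all genes. Unadjusted, 4 of the 10 had p under 0.05, against 20.8% of all genes. All 4 were lower in OE and 0 higher, where the background is 10.7% lower and 10.1% higher. These 4 were *NFKBIA*, *NFKBIZ*, *TNFAIP3* and *ZC3H12A*. DESeq2, the tool that the study's methods name, called 3 of the 10 under the same limits, against 8.77% of all genes, and limma-voom called 0. DESeq2's 3 genes were *NFKBIZ*, *TNFAIP3* and *ZC3H12A*, all lower (background 4.42% lower and 4.35% higher).

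**Figure D1:**
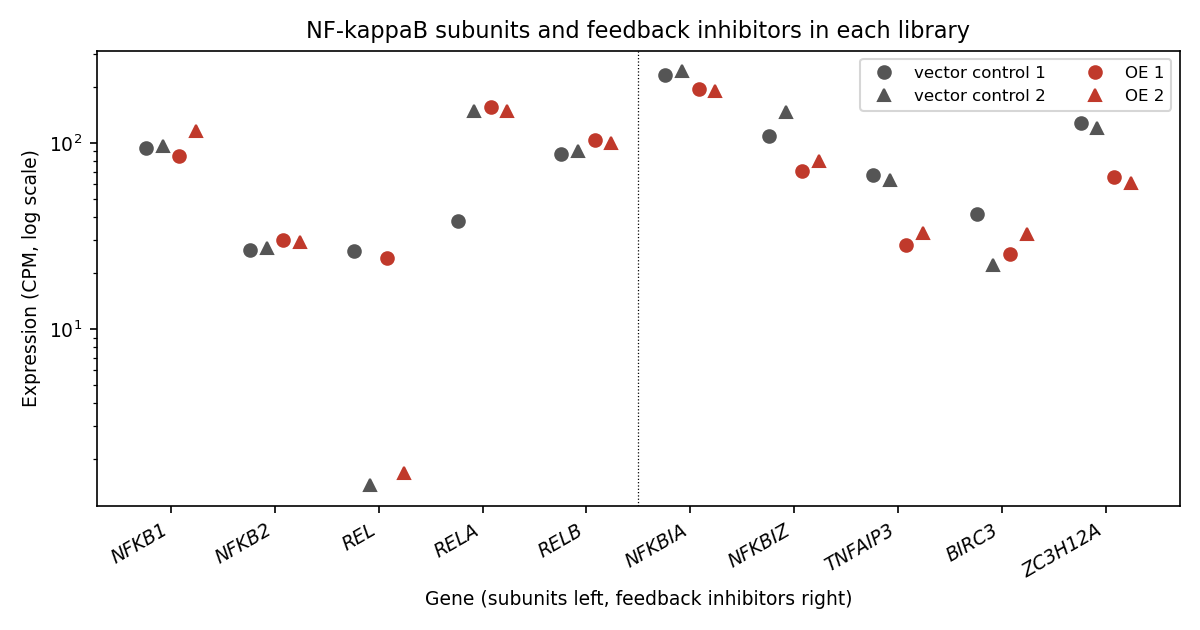
Expression of the 10 genes in each library, in CPM on a log axis, with vector control libraries in grey and OE libraries in red (circles replicate 1, triangles replicate 2). The OE libraries lie below the vector control libraries for *NFKBIA*, *NFKBIZ*, *TNFAIP3* and *ZC3H12A*, while *REL* separates by replicate number and *RELA* has 1 low library at 38.1 CPM.

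*TNFAIP3* encodes A20, a ubiquitin-editing enzyme that shuts off signalling from the TNF receptor to the IKK kinases. It is annotated at chr6:138188351-138204451 in hg19, plus strand (ENSG00000118503.10). The vector control libraries held 1557 and 1486 counts and the OE libraries 710 and 952, or 66.9 and 63.2 CPM against 28.3 and 32.9 CPM. Every OE library was thus well under every control library, and the gap exceeded the spread within either group. The log2FC was -1.09 (SE 0.121, edgeR adjusted p = 0.0693, taken over all genes tested), and dropping any single library kept it within -1.20 to -0.98. DESeq2 gave an adjusted p of 1.43e-14, and over all alternatives the adjusted p reached 0.296. An antisense gene (ENSG00000237499) overlaps *TNFAIP3*, with 4 to 11 counts per library.

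*ZC3H12A* encodes Regnase-1, an RNase that degrades cytokine mRNAs and so limits what NF-κB has switched on. The gene (ENSG00000163874.8) is annotated at chr1:37940181-37949978 in hg19, plus strand. The vector control libraries held 2998 and 2844 counts and the OE libraries 1645 and 1753, and all of these lay on a single transcript. Mean CPM stood at 125 ± 5.46 (SD, n = 2) under vector control against 63.1 ± 3.50 (SD, n = 2) in OE, without overlap. The log2FC was -0.99 (SE 0.0917, edgeR adjusted p = 0.0615). Dropping any single library kept it within -1.04 to -0.93. DESeq2 gave an adjusted p of 1.94e-24, and limma-voom one of 0.0412, which misses the study's threshold.

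*NFKBIA* encodes IκBα, the inhibitor that holds NF-κB dimers in the cytoplasm. It is annotated at chr14:35870285-35873955 in hg19, minus strand (ENSG00000100906.6). *NFKBIA* stood at 231 and 242 CPM under vector control and at 194 and 191 CPM in OE. The groups did not overlap, but the difference was small, with a log2FC of -0.30 (SE 0.0641, edgeR adjusted p = 0.132). It stayed short of the study's fold limit in edgeR, DESeq2 and limma-voom, although DESeq2's adjusted p was 3.27e-06. In replicate 2 of either group, 14.4% and 15.7% of the counts were placed on a transcript with a retained intron (ENST00000555371.1), and in replicate 1 of either group none were.

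*NFKBIZ* encodes IκBζ, a nuclear member of the IκB family that works as a cofactor for some NF-κB targets rather than as a cytoplasmic anchor. It is annotated at chr3:101546835-101579866 in hg19, plus strand (ENSG00000144802.7). Its level was 109 and 146 CPM under vector control and 71.0 and 80.4 CPM in OE. Although the control libraries differed from each other 1.34-fold, both lay above the OE libraries. The log2FC was -0.75 (SE 0.185, edgeR adjusted p = 0.156), -0.95 when vector control replicate 1 was dropped and -0.52 when replicate 2 was. Counted on 1 transcript alone, that of the highest mean count, the direction turned (log2FC 0.58), since vector control replicate 2 had none of its counts there. *NXPE3*, on the same strand, overlaps the annotated span of *NFKBIZ* and had 2506 to 2882 counts per library.

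*BIRC3* encodes cIAP2, a ubiquitin ligase that works beside TRAF2 at the TNF receptor and restrains the noncanonical pathway. The gene (ENSG00000023445.9) is annotated at chr11:102188215-102210134 in hg19, plus strand. It was the exception among the inhibitors, at 41.6 and 22.2 CPM under vector control and 25.5 and 32.3 CPM in OE. The OE values lay between the control values. Its log2FC of -0.14 (SE 0.363, edgeR adjusted p = 0.863) changed sign when a library was left out, to 0.38 without vector control replicate 1 and 0.02 without OE replicate 1.

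**Figure D2:**
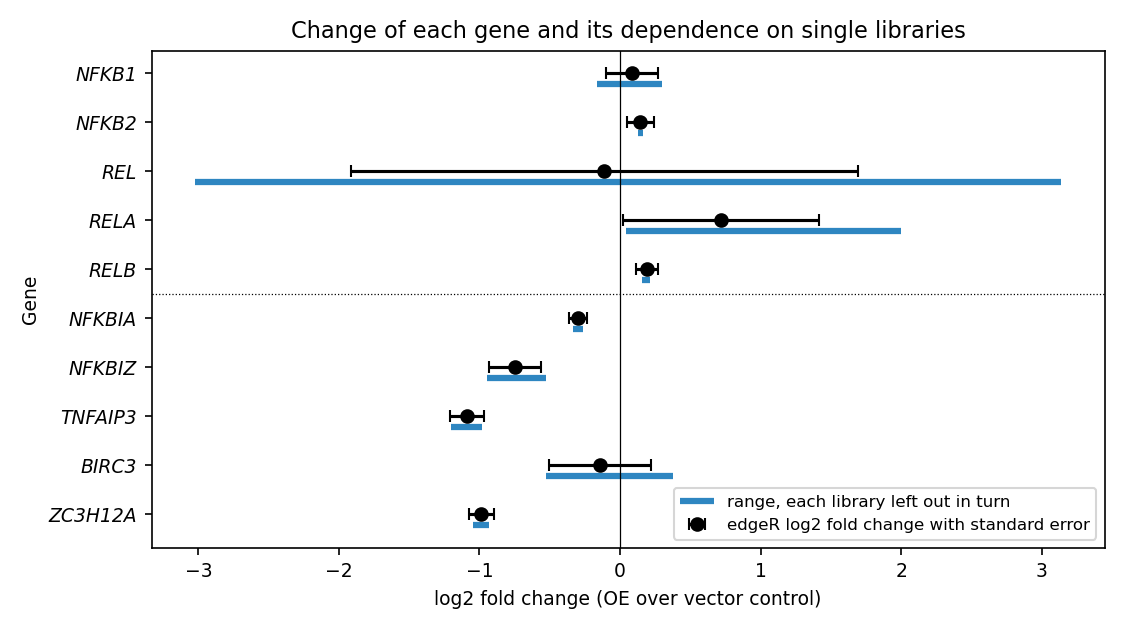
Log2 fold change (log2FC) of each gene (OE over vector control, edgeR, black points with standard errors) and its range when each library is left out in turn (blue bars). *TNFAIP3*, *ZC3H12A*, *NFKBIZ* and *NFKBIA* stay below 0 throughout, *RELB* and *NFKB2* stay slightly above 0, and *REL* spans -3.02 to 3.14.

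Among the subunits, *RELB* and *NFKB2* form the dimer of the noncanonical pathway, *NFKB2* as the precursor p100 that is cut to p52. *RELB* (ENSG00000104856.9, hg19 chr19:45504719-45541450, plus strand) had 87.1 and 90.9 CPM under vector control and 103 and 99.7 CPM in OE. *NFKB2* (ENSG00000077150.13, hg19 chr10:104153867-104162281, plus strand) had 26.7 and 27.2 CPM under vector control and 30.1 and 29.5 CPM in OE. In these genes the replicates were close and the OE libraries lay just above the controls. The log2FCs were 0.19 for *RELB* (SE 0.0794, edgeR adjusted p = 0.294) and 0.15 for *NFKB2* (SE 0.0930, edgeR adjusted p = 0.451), and neither passed at an unadjusted p under 0.05. DESeq2's adjusted p for *RELB* was 0.0438.

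*NFKB1* encodes p105, the precursor of p50, which pairs with the *RELA* product p65 in the classical dimer. *NFKB1* (ENSG00000109320.7, hg19 chr4:103422487-103538459, plus strand) was at 93.5 and 96.0 CPM under vector control and at 84.6 and 116 CPM in OE. The OE libraries lay on either side of the controls. Its log2FC was 0.09 (SE 0.183, edgeR adjusted p = 0.834), 0.30 without OE replicate 1 and -0.16 without OE replicate 2.

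For *RELA* and *REL* the replicates of a group differed more than the groups. *RELA* (ENSG00000173039.14, hg19 chr11:65421070-65430561, minus strand) held 886 and 3475 counts under vector control and 3925 and 4311 in OE. In CPM, vector control replicate 1 stood at 38.1, while the other libraries lay between 148 and 156. The log2FC of 0.72 (SE 0.697, edgeR adjusted p = 0.618) rested on that library, and without vector control replicate 1 it was 0.04.

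*REL*, whose product c-Rel is best known from lymphocytes (ENSG00000162924.9, hg19 chr2:61108626-61158747, plus strand), held 610 and 34 counts under vector control and 601 and 49 in OE. Replicate 1 of each group was thus high and replicate 2 low, 18.1-fold apart in the vector control and 14.1-fold apart in the OE libraries. Whether reads of *REL* were assigned to other genes in replicate 2 was not tested, so these counts may not be levels of its RNA. The log2FC was -0.11 with an SE of 1.80 (edgeR adjusted p = 0.978). A lncRNA gene on the same strand (ENSG00000267520) overlaps its span, at 782 and 855 counts under vector control and 810 and 1058 in OE.

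In *RELA*, *NFKBIZ* and *BIRC3*, the transcript that received most of the counts was not the same in all libraries. In the other genes the leading transcript was the same throughout, although its share varied in some. The table lists 90 transcripts of the 10 genes, of which 30 had at least 1 count. For *RELA*, ENST00000525693.1 held 89.3% and 98.4% of the counts in the vector control and 0% in the OE libraries, whereas ENST00000406246.3 held 10.7% and 0.345% in the vector control and 98.4% and 98.6% in the OE libraries. The split followed the groups, with no library in between. The counting tool is not given in the sources used here, and whether this split, or those of the other genes, comes from how reads were assigned to transcripts was not tested. Both transcripts are annotated as protein coding, at 3183 and 2517 nt.

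For *NFKBIZ* the split did not follow the groups. ENST00000326172.5 held 91.3% of the counts in vector control replicate 1 and 99.8% and 96.4% in the OE libraries, but 0% in vector control replicate 2, where ENST00000394054.2 held 98.6%. In *NFKB1*, ENST00000226574.4 held 82.3% and 67.0% of the counts in the vector control and 95.0% and 98.7% in the OE libraries. *BIRC3* varied as much within a group as between groups, with ENST00000526421.1 at 27.8% and 53.7% in the vector control and at 0% and 33.6% in the OE libraries. The counts of *ZC3H12A* and *REL* were on a single transcript in all libraries, and *TNFAIP3* had between 89.6% and 95.6% on ENST00000237289.4.

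**Figure D3:**
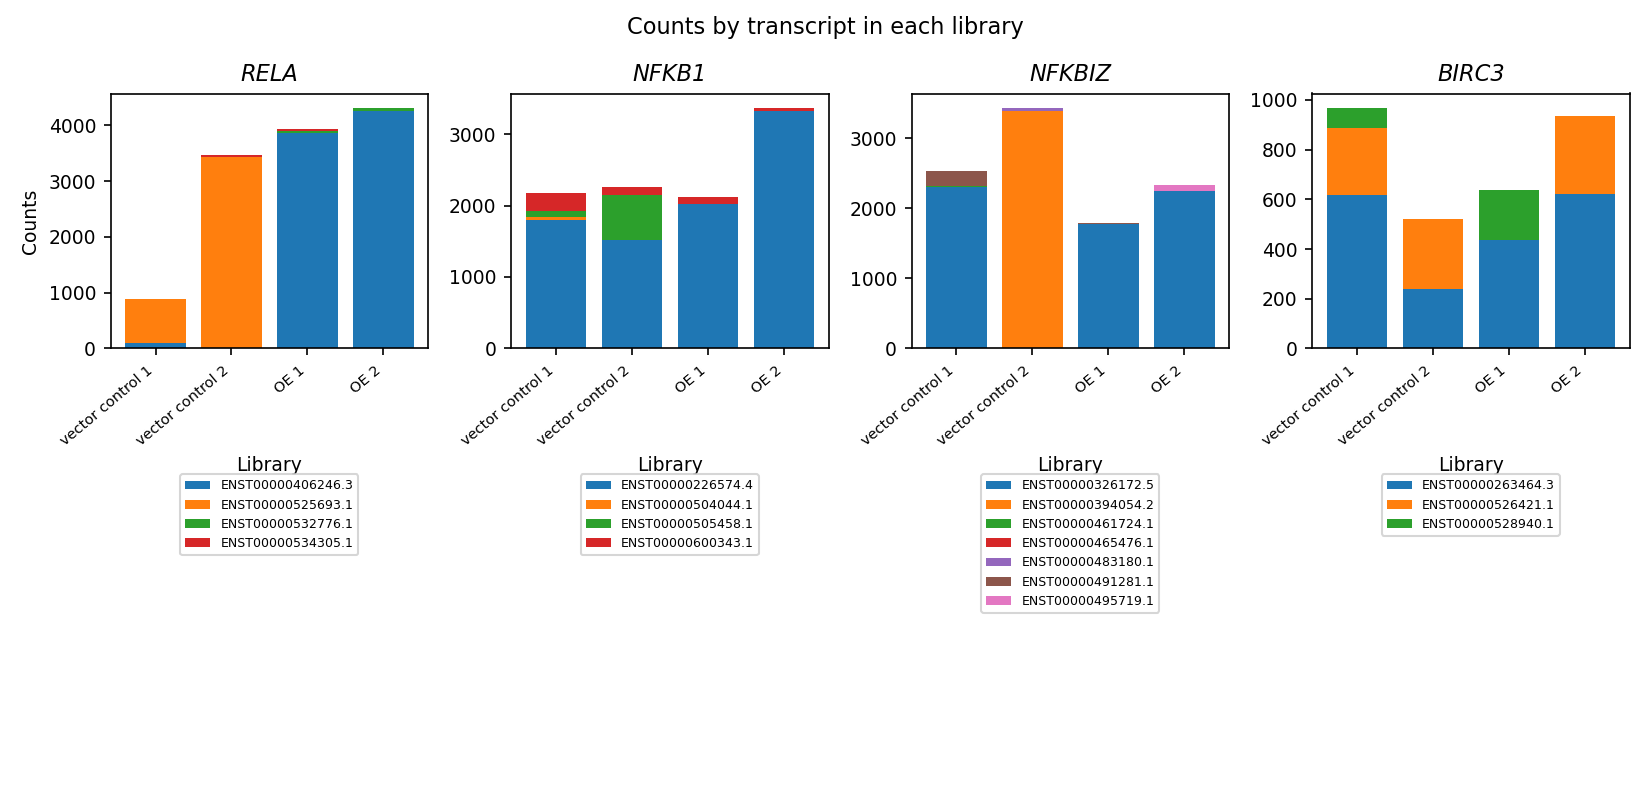
Counts of *RELA*, *NFKB1*, *NFKBIZ* and *BIRC3* in each library, stacked by transcript. *RELA* counts sit on ENST00000525693.1 in the vector control (89.3% and 98.4%) and on ENST00000406246.3 in the OE libraries (98.4% and 98.6%), and vector control replicate 2 alone places *NFKBIZ* on ENST00000394054.2.

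Levels of different genes were set side by side only per transcript length, as CPM per kb summed over the transcripts of a gene. These values, and their SDs, depend on the transcripts on which the counts were placed. In *NFKBIZ*, a transcript of 564 nt held 8.47% of the counts in vector control replicate 1 and 0% in replicate 2. The small SD of *NFKBIZ* below therefore hides gene levels of 109 and 146 CPM. In the vector control *NFKBIA* was the highest of the 10 at 166 ± 25.2 CPM per kb (SD, n = 2). *ZC3H12A* followed at 47.1 ± 2.06, and *RELB* at 40.6 ± 0.819 and *NFKBIZ* at 40.5 ± 1.83 CPM per kb could not be ordered, since their libraries overlapped. *RELA* spanned 12.3 to 48.8 CPM per kb and could not be placed. Next came *NFKB1* at 25.2 ± 1.21 and *TNFAIP3* at 14.6 ± 0.586 CPM per kb. *NFKB2* at 8.31 ± 0.0532 lay within the range of *BIRC3*, from 3.74 to 11.8 CPM per kb, and *REL* was the lowest at 0.129 to 2.33. In the OE libraries *ZC3H12A* was at 23.8 ± 1.32 CPM per kb and thus under *RELB* at 45.9 ± 1.36 CPM per kb, with no overlap, an order opposite to that in the vector control. The difference in order was not tested.

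The rest of the pathway was described with 4 lists of 83 genes, of which 77 were tested. Among 20 IKK kinases and adaptors the median log2FC was -0.17, with 11 genes whose OE libraries both lay below and 2 whose OE libraries both lay above the controls. Over all genes those shares were 27.6% and 27.8%. By unadjusted p under 0.05, 4 were lower and 1 was higher, against 10.7% and 10.1% of all genes. None passed the study's thresholds in edgeR's test or limma-voom, and 1 of 20 did in DESeq2, close to the 4.42% of all genes that were lower. That gene was *IRAK1*, the kinase behind the IL-1 and Toll-like receptors, at 218 ± 19.4 CPM (SD, n = 2) under vector control and 54.5 ± 21.9 CPM (SD, n = 2) in OE, with an edgeR adjusted p of 0.0987. The partner kinase *IRAK4* was at 14.3 and 13.8 CPM against 11.7 and 4.70 CPM, so its size depended on OE replicate 2, and its log2FC was -0.77 with all libraries and -0.26 without it. *BIRC2*, which encodes cIAP1 and is the close relative of *BIRC3*, was at 156 and 138 CPM under vector control and 100 and 110 CPM in OE (edgeR adjusted p = 0.134). *IKBKE*, an IKK-related kinase, had a mean of 37.6 CPM against 27.2 CPM (edgeR adjusted p = 0.175).

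Among 16 other inhibitors of the pathway, 8 log2FCs were positive and 8 negative, with a median of -0.03. In 8 of them both OE libraries lay below the controls and in 5 both lay above, against 27.6% and 27.8% of all genes. By unadjusted p under 0.05, 2 of 16 were lower and 0 higher, close to the 10.7% lower among all genes. None passed the study's thresholds in edgeR's test or limma-voom, and 1 of 16 did in DESeq2, against 4.42% lower overall. *PDLIM2*, a nuclear ubiquitin ligase for p65, was the gene DESeq2 called. Its libraries held 450 and 530 counts under vector control and 134 and 170 in OE (log2FC -1.90, SE 0.154, edgeR adjusted p = 0.0521). *TNIP1*, whose product binds A20, was at 165 and 158 CPM under vector control and 123 and 133 CPM in OE (edgeR adjusted p = 0.150). *BCL3*, a nuclear IκB protein, was at 19.7 and 35.8 CPM against 15.3 and 15.0 CPM, a log2FC of -0.88 that was -0.39 without vector control replicate 2. *NFKBIB*, which encodes IκBβ, lay on the other side, at 65.1 and 52.6 CPM against 79.1 and 72.1 CPM.

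Of 17 ligands and receptors, 12 were tested, with a median log2FC of -0.26, and in 6 both OE libraries lay below and in 2 above the controls. The shares over all genes were 27.6% below and 27.8% above. The ligand genes *TNF*, *LTA* and *LTB* and the receptor genes *LTBR* and *CD40* were listed at 0 in all libraries, which allows up to 3 counts in each, or 0.104 to 0.129 CPM (counting error only). That limit is on the deposited counts, and whether reads of these genes, such as the broadly expressed *LTBR*, were assigned elsewhere was not tested. By unadjusted p under 0.05, 5 of the 12 were lower and 0 higher, against 10.7% and 10.1% of all genes. Again edgeR's test and limma-voom called none at the study's thresholds, and DESeq2 called 4 of 12, all lower, against 4.42% of all genes. The 4 were *IL1B*, *IL1R1*, *TNFRSF12A* and *TNFSF12*, the last named only because DESeq2 called it. *IL1B*, a cytokine that starts the classical pathway, was at 142 and 146 CPM under vector control and 82.3 and 93.3 CPM in OE (log2FC -0.71, SE 0.0977, edgeR adjusted p = 0.0808). Its receptor gene *IL1R1* had 38.5 ± 0.70 CPM (SD, n = 2) against 22.6 ± 2.35 CPM (log2FC -0.77, edgeR adjusted p = 0.0937). *TNFRSF12A*, the receptor for TWEAK, was at 185 and 256 CPM against 65.1 and 94.5 CPM (log2FC -1.47, edgeR adjusted p = 0.113). With 1 transcript per gene its fitted log2FC was -15.4, a value that depends on the prior count and is no bound. *TNFSF12*, which encodes the ligand TWEAK, was at 28.3 and 26.8 CPM against 19.2 and 19.1 CPM (log2FC -0.52, edgeR adjusted p = 0.118). *TNFRSF1A*, the main TNF receptor, was not called by DESeq2 (adjusted p = 0.496) and had 108 and 115 CPM under vector control and 94.5 and 35.6 CPM in OE, so most of its log2FC of -0.78 came from OE replicate 2, without which it was -0.24.

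The target genes lay on either side of the control level. Of 30 listed, 29 were tested, with 17 positive and 12 negative log2FCs and a median of 0.03, and in 10 both OE libraries lay above and in 7 below the controls. Over all genes tested, 27.8% had both above and 27.6% both below. By unadjusted p under 0.05, 7 were higher and 3 lower, against 10.1% and 10.7% of all genes, so that the lower share was about the background. None passed the study's thresholds in edgeR's test or limma-voom, while DESeq2 called 5 higher and 2 lower, against 4.35% and 4.42%. These were *CCL5*, *PTX3*, *VCAM1*, *TRAF1* and *MMP9* (higher) and *CCL2* and *CXCL1* (lower), with *TRAF1* and *MMP9* named only because DESeq2 called them. *MMP9*, a matrix metalloproteinase gene, was at 26.1 and 31.0 CPM against 39.7 and 43.0 CPM (log2FC 0.53, edgeR adjusted p = 0.158, DESeq2 adjusted p = 0.00344). With the relaxed limit of 0.05, edgeR passed 4 genes, 2 higher and 2 lower, against 0.283% and 0.312% of all genes. The chemokine gene *CCL5* rose from 12.4 and 13.4 CPM in the vector control to 52.1 and 54.4 CPM in OE (log2FC 2.05, SE 0.104, edgeR adjusted p = 0.0310). *PTX3*, a secreted pattern recognition protein, rose from 1289 and 1262 CPM to 2114 and 2024 CPM (log2FC 0.70, SE 0.0409, edgeR adjusted p = 0.0376). The monocyte chemokine gene *CCL2* fell from 550 and 558 CPM to 345 and 346 CPM (log2FC -0.68, SE 0.0473, edgeR adjusted p = 0.0440). *CXCL1*, which encodes a neutrophil chemokine, fell from 315 and 330 CPM to 183 and 185 CPM (log2FC -0.81, SE 0.0605, edgeR adjusted p = 0.0481). All of these 4 had replicates that differed less than 1.1-fold. None of the 4 passed this level with any library left out, where the edgeR adjusted p ranged from 0.0779 to 0.105 for *CCL5*, 0.0681 to 0.114 for *PTX3*, 0.117 to 0.123 for *CCL2* and 0.121 to 0.139 for *CXCL1*, with directions kept. Nor did any pass in edgeR's test when 1 transcript stood for each gene (adjusted p 0.0546 to 0.0605) or with a block on replicate number (0.278 to 0.296). *CXCL1* also missed the 0.05 level with upper-quartile scaling (0.0504) and with the filter at 1 count (0.0629).

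Short of the 0.05 level in edgeR's test, *VCAM1*, an adhesion receptor for leukocytes, was at 36.3 and 32.1 CPM under vector control and 72.9 and 77.1 CPM in OE (log2FC 1.13, SE 0.111, edgeR adjusted p = 0.0629). For *VCAM1* limma-voom gave an adjusted p of 0.0429 and DESeq2 one of 8.43e-20. The chemokine gene *CCL20* was at 4.04 and 4.43 CPM against 6.62 and 9.44 CPM (edgeR adjusted p = 0.168).

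Promoters of target genes held the κB letters in 11 of 24 cases, against 1 of 18 kinases and adaptors, 1 of 14 other inhibitors and 1 of 14 ligands and receptors. The share over all promoters was 9.08%. Since the first list was made of NF-κB targets, the contrast between lists is no test of these genes. The matches of *CXCL1*, which fell, and *PTX3*, which rose, are shown to set genes of opposite direction beside the inhibitors. They lie at chr4:73869304-73869333 and chr3:157436744-157436773 in GRCh38.p14, starting 79 and 96 bases before the start site. A further match overlaps each of them. It starts 78 bases before the start site on the opposite strand in *CXCL1*, and 97 bases before it on the same strand in *PTX3*.
CXCL1: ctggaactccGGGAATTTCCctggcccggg
PTX3: ccaaattcagGGGAACTCCCgttaccgcag

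The 10 letters in capitals of *CXCL1* are the same as those of *NFKB1* and *NFKBIZ*. The log2FCs of these 3 genes were -0.81, 0.09 and -0.75.

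**Figure D4:**
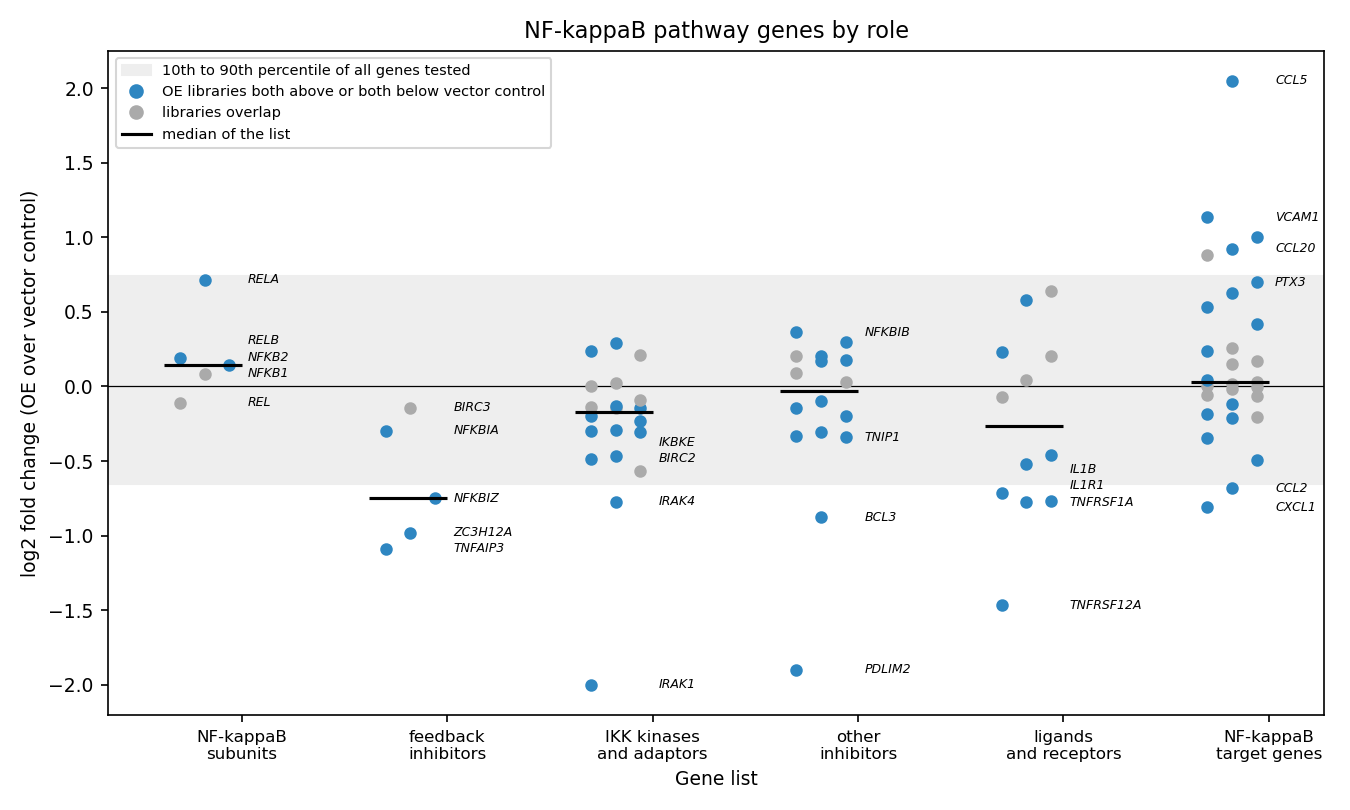
Log2FC (OE over vector control) of each tested gene by list, with the median of the list as a black line and the 10th to 90th percentile of all genes (-0.65 to 0.74) in grey. Blue points mark genes with no overlap between OE and control libraries, and the feedback inhibitors sit at or below -0.14 while the target genes spread from -0.81 to 2.05.

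Other measures moved with the groups. The adrenergic markers summed to 407 and 475 CPM under vector control and 756 and 729 CPM in OE, and 7 of the 8 had both OE libraries above both controls. Of 6 mesenchymal markers, 4 had both OE libraries below (*PRRX1*, *YAP1*, *CD44* and *SNAI2*) and *VIM* had both above, while their sum ranged from 2072 to 2101 CPM under vector control and from 1611 to 2572 CPM in OE. The leukocyte markers summed to 11.2 to 11.4 CPM under vector control and 0.996 to 5.81 CPM in OE, of which *CD68*, a lysosomal gene that other cells also use, made up 10.1 to 10.3 CPM and 0.0797 and 4.36 CPM, respectively. Glial, endothelial and epithelial markers summed to at most 2.77 CPM in any library. The part of these differences in the levels of the NF-κB genes was not tested.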

How the data were processed

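Per the labels and the methods, RNA from transduced SK-N-SH cells was sequenced as paired-end reads, which the authors trimmed with Trimmomatic and mapped to hg19 with Bowtie2 (2.0.4 in the processing notes, which also name Picard 2.21.6, StringTie 2.1.6 and DESeq2). What the authors deposited are whole-number counts for each Ensembl transcript, whose totals differ between libraries. Whether StringTie or another tool made them, from reads or from estimated coverage, and the annotation release and use of strand are not given in the sources used here. Control libraries carry WT in their titles but an empty vector as treatment, and the treatment was followed.

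Counts were summed per gene (196520 transcripts, 57820 genes). The 20528 genes kept by filterByExpr were normalized by TMM (factors 0.976 to 1.02) and tested with edgeR 4.0.16 in R 4.3.3 (quasi-likelihood, 2 libraries against 2, no covariates, Benjamini-Hochberg over all genes tested). The fits were tested on simulated data. Alternatives were DESeq2 1.42.0, limma-voom (limma 3.58.1), scaling by RLE or by the upper quartile, filters at 1 count over all libraries or at a mean of 10, dropping single libraries, blocking on replicate number, using 1 transcript per gene, that of the highest mean count, and an adjusted p under 0.05. Reads carried no molecular identifiers, so limits on 0 counts reflect counting error alone.

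The members, lists and tests were chosen with earlier results of these data known. Named were all 10 members, list genes at an adjusted p under 0.05 and, per list, up to 4 genes of the largest log2FC that averaged 5 CPM or more and had OE libraries on 1 side of both controls. Positions, lengths and overlaps came from the GENCODE 44 annotation lifted to GRCh37 (hg19), in which 1 transcript of *NFKB2* with counts was not found. Figures were drawn with matplotlib 3.10.9.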

Additional observations from a re-analysis of the deposited data

How the results depend on the processing

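At the study's thresholds, DESeq2 on the same genes called 1800 genes, among them 3 of the 10 NF-κB genes, 1 of the kinases and adaptors, 1 of the other inhibitors, 4 of the ligands and receptors and 7 of the target genes, where edgeR's test called none. A minimum of 1 count in total gave 9 genes over the whole table, and the transcript with the highest mean count gave 1, without any of these genes. An adjusted p under 0.05 without a fold limit gave 122 genes, among them 4 target genes and 0 of the 10. With only the transcript of the highest mean count, *NFKBIZ* turned to 0.58 and *BIRC3* to 0.0771 on the log2 scale, as the counts of vector control replicate 2 lay on another *NFKBIZ* transcript, and *RELA* reached 6.03. The medians of the other inhibitors and of the target genes changed sign, to 0.03 and -0.01. The median of the inhibitors was then -0.31 and ranged from -0.94 to -0.53 when single libraries were dropped. Leaving out a library in turn moved *REL* from -3.02 to 3.14, *BIRC3* from -0.53 to 0.38 and *NFKB1* from -0.16 to 0.30, and the other 7 genes kept their direction. The 122 genes became 0 without vector control replicate 1 (3452 at an unadjusted p under 0.05), 0 without vector control replicate 2 (3362), 75 without OE replicate 1 and 120 without OE replicate 2. The labels give no shared origin for libraries of the same number, and across 20528 genes their deviations correlated at r = -0.0216, although single genes such as *REL* did divide by number. A replicate block left 0 genes at an adjusted p under 0.05 and 3060 at an unadjusted p under 0.05 against 4269 without it, and turned *REL* to 0.0324. The 4 target genes then had adjusted p from 0.278 to 0.296. Upper-quartile scaling shifted the median of all genes to 0.05 and changed no direction among the 10.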

Other observations

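The strongly expressed targets *CXCL8*, *SDC4* and *SOD2* had log2FCs near 0. These genes were named here after their values were seen. *CXCL8* (listed as *IL8*), a neutrophil chemokine gene like *CXCL1*, was at 1222 and 1195 CPM under vector control and 1200 and 1242 CPM in OE (log2FC 0.01, SE 0.0409). *SDC4*, a syndecan, was at 499 and 506 CPM against 498 and 507 CPM. *SOD2*, the mitochondrial superoxide dismutase, was at 3844 and 3917 CPM against 3574 and 3589 CPM (log2FC -0.12, SE 0.0273, edgeR adjusted p = 0.149, DESeq2 adjusted p = 5.14e-09), with both OE libraries below both controls. By contrast, *TRAF1*, an adaptor that NF-κB itself induces and a gene that DESeq2 called, was higher in OE. It was at 88.4 and 92.0 CPM under vector control and 140 and 139 CPM in OE (log2FC 0.63, SE 0.0733, edgeR adjusted p = 0.0707, DESeq2 adjusted p = 1.68e-21). Whether the changes of these targets differ from each other was not tested.

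*CHUK*, which encodes the kinase IKKα and was also named after its values were seen, divided by replicate number as *REL* did. It was at 29.2 and 33.6 CPM in replicate 1 of the vector control and the OE group, and at 2.00 and 2.63 CPM in replicate 2. As for *REL*, assignment of its reads to other genes was not tested.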
